A study of Mus musculus with 4 samples.

Results

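The genes of MHC class II antigen presentation were compared between IRF8-GFP positive and IRF8-GFP negative lymphoid-primed multipotent progenitors (LMPP) of mouse bone marrow. The members were 10 genes: the classical chains H2-Aa, H2-Ab1 and H2-Eb1, the invariant chain Cd74, the peptide exchange genes H2-DMa, H2-DMb1 and H2-DMb2, their inhibitor genes H2-Oa and H2-Ob, and the transactivator Ciita. They were found by matching the RefSeq accession of each non-control probe to a gene symbol, which gave 12 probes for the 10 members, of 26756 named probes for 20280 genes on the arrays. All 10 members passed the filter on dim probes, and 9 of them were above background on all 4 arrays.

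The study used 4 one-colour Agilent arrays, 2 for each group, with samples named by experiment 1 and 2. Both groups came from mice that carried an IRF8-GFP knockin reporter, which marks cells making the transcription factor IRF8, so the reporter was shared and no mice without it were compared. After magnetic enrichment, cells were sorted by flow cytometry as negative for lineage markers, IL-7R and CD150 and positive for Sca-1, CD117, CD34 and CD135 (the receptor encoded by Flt3), and then as IRF8-GFP(-) or IRF8-GFP(+). The strain, age and sex of the mice, any pooling of mice, and whether the reporter alters the IRF8 protein were not given in the labels. The labels also do not say that the experiments used separate animals, so the p-values measure the spread between these samples, which may be technical.

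A class II molecule is built from an alpha and a beta chain and presents peptides from the endosome to CD4 T cells. New chains bind the invariant chain, whose remnant in the groove is exchanged for peptide with the help of the DM dimer, and the DO dimer restrains DM. Ciita is the co-activator that the promoters of these genes depend on, and dendritic cells, macrophages and B cells are the professional presenting cells that arise further down the haematopoietic tree.

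The promoters bear on the comparison because class II genes share an X box and a Y box, the elements through which RFX and NF-Y recruit Ciita. RefSeq promoters of GRCm38.p6, reaching from 250 bases before to 50 bases after the start, were at hand for 7 of the 10 members (8 starts), all on chromosome 17. The Y box core ATTGG, searched on both strands, was found for 7 of the 7 genes and in 37.4% of all 32851 promoters. The longer X box letters CCTNGCAAC were found for 1 of the 7, H2-Ob, and in 1.74% of all promoters. A shorter part of those letters, GCAAC, was chosen after the sequences were seen, and 5 of the 7 genes and 35.2% of all promoters held it. The percentages count promoters and not genes. Counted by promoter, the members held ATTGG in 7 of 8, CCTNGCAAC in 1 of 8 and GCAAC in 5 of 8. Windows of 65 bases around the Y box are shown for the 6 members with ATTGG in the 5′ to 3′ direction of the gene close to the start, because they hold the letters compared here, and H2-DMa had no such window. Capitals mark GCAAC and ATTGG, and each window is read 5′ to 3′ on the strand of its gene.
H2-Oa, chr17:34092286-34092350, plus strand: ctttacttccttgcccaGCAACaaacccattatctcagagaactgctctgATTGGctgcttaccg
H2-Ob, chr17:34238798-34238862, plus strand: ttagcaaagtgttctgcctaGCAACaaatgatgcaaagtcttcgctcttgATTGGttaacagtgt
H2-Aa, chr17:34287857-34287921, minus strand: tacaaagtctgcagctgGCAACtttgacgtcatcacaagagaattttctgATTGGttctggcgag
H2-Eb1, chr17:34305758-34305822, plus strand: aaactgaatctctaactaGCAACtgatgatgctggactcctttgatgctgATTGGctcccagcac
H2-DMb1, chr17:34153080-34153144, plus strand: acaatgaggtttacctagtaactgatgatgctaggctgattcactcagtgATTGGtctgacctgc
H2-DMb2, chr17:34145109-34145173, plus strand: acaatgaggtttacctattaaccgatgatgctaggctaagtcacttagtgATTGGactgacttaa

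In the windows of H2-Oa, H2-Aa, H2-Eb1 and H2-Ob, GCAAC stood before ATTGG on the same strand with the starts of the elements 33, 33, 32 and 30 bases apart. The Y box of these 4 genes began 43, 48, 59 and 57 bases before the transcription start. Such a pair, with 28 to 36 bases between the starts, was present in 0.429% of all promoters. Among the members it was present in 4 of 7 genes and 4 of 8 promoters, a search that was also chosen after the sequences were seen. The H2-DMb1 and H2-DMb2 windows held ATTGG at 61 and 90 bases before the start and no exact GCAAC. They held similar letters, gtaactgatgatgc in H2-DMb1 and ttaaccgatgatgc in H2-DMb2, where H2-Eb1 held GCAACtgatgatgc. The exact search therefore does not show that these 2 windows lack an X box. The longer letters CTGATTGG, which contain ATTGG, were found in 4.10% of all promoters. Among the members they were found in 3 of 7 genes and 3 of 8 promoters, a search likewise chosen afterwards. These matches describe letters in a window and were not tested against expression.

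Expression was read as the scanner's processed intensity, taken to log2 and set relative to the 75th percentile of each array. Differences are IRF8-GFP positive minus negative with the standard error of the limma fit over 22362 genes and unnamed transcripts, n = 2 arrays a group, and called at a Benjamini-Hochberg adjusted p below 0.05. In IRF8-GFP positive cells 2 members rose and 5 fell, and 3 were not called. Those that rose were H2-DMa and H2-DMb1, and those that fell were H2-Aa, H2-Eb1, Cd74, H2-Oa and H2-Ob, while H2-Ab1, H2-DMb2 and Ciita were not called. Of all genes tested, 38.5% were called higher and 21.4% lower, so that a call of either kind is common here. The median difference of the members was -0.27, and that of all genes tested was 0.16.

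The groups did not overlap for 8 members: both positive arrays lay below both negative arrays for 6 of the 10, against 29.8% of all genes, and above them for 2, against 52.4%. Ciita, counted among those 6, passed the filter only through the negative arrays, so its place among them is no support for a decrease. With 2 arrays a group the smallest exact permutation p is 0.333, and the adjusted p-values therefore rest on the limma model. The calls depended on the scaling: under quantile normalization, the authors' matrix, a 75th percentile of the probes above background on all arrays, cyclic loess and spike-in scaling, no member was called higher and 6 were called lower. Under those 5 scalings the genes called higher numbered 3344 to 6059 and those called lower 5466 to 7939, beside 8611 and 4779 here. Quantile normalization and the authors' matrix nearly coincided, with 11525 and 11522 genes called and H2-Aa at -0.2433 and -0.2441. They are therefore hardly separate checks in any count of scalings.

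**Figure D1:**
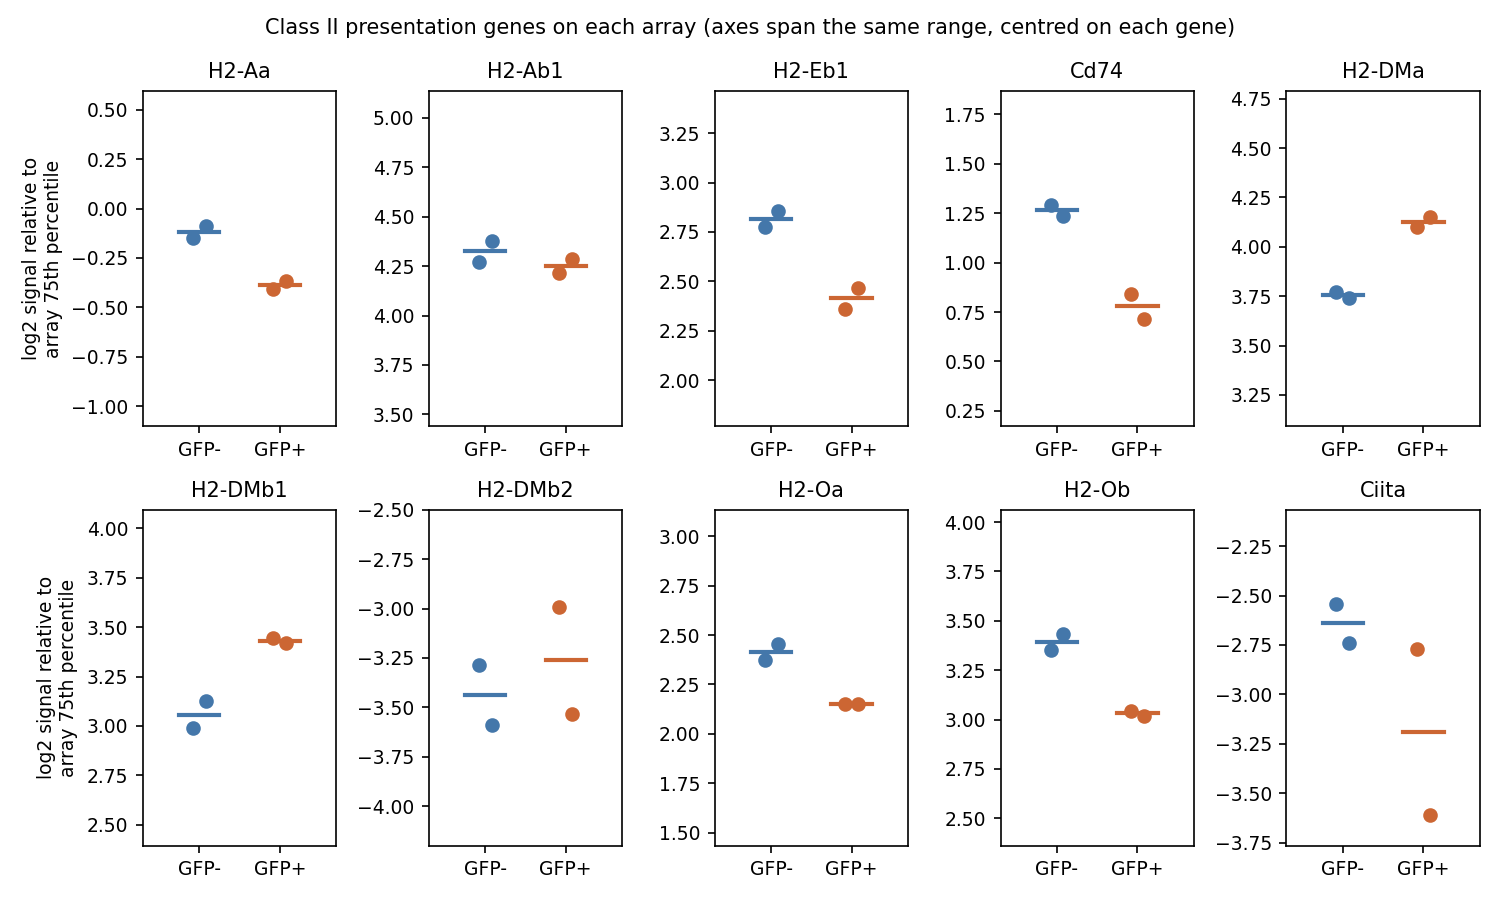
Log2 signal of each class II gene relative to the array's 75th percentile (vertical axes, the same span in every panel) on the 2 IRF8-GFP negative (blue) and 2 IRF8-GFP positive (orange) arrays, with points for arrays and bars for group means. The positive arrays lie below the negative ones for H2-Aa, H2-Eb1, Cd74, H2-Oa, H2-Ob and Ciita and above them for H2-DMa and H2-DMb1, and the groups overlap for H2-Ab1 and H2-DMb2.

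The classical chains form the peptide-binding molecule at the cell surface. H2-Eb1, the E beta chain, had log2 levels of 2.78 and 2.86 in the GFP-negative cells against 2.36 and 2.47 in the GFP-positive cells. Its level fell by 0.40 on the log2 scale (SE 0.07, adjusted p = 0.0120), a 1.32-fold decrease. Both positive arrays were lower than both negative arrays by more than the spread within either group. H2-Aa, the A alpha chain, had log2 levels of -0.15 and -0.09 in the GFP-negative cells against -0.41 and -0.37 in the GFP-positive cells. It fell by 0.27 (SE 0.06, adjusted p = 0.0212), or 1.20-fold, again with no overlap of the groups. The decrease of H2-Eb1 and H2-Aa was called under each of the 7 scalings, with differences from -0.70 to -0.40 and from -0.57 to -0.20.

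H2-Ab1, the A beta chain that pairs with H2-Aa, was not called at this scaling. Its brighter probe gave 4.27 and 4.38 in the GFP-negative cells against 4.22 and 4.29 in the GFP-positive cells, so the groups overlapped. The difference of -0.07 had an SE of 0.07 and an adjusted p of 0.408, and the second probe of H2-Ab1 gave -0.06. In 5 of the 7 scalings H2-Ab1 was called lower (adjusted p = 0.0113 to 0.0217), with differences down to -0.42, and in none was it above 0. H2-Aa lost its call without either negative replicate (adjusted p = 0.0823 and 0.121) and without positive replicate 1 (0.0693), and H2-Eb1 without either negative replicate (0.0548 and 0.0758).

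Among classical and related chains, H2-Eb2, an E beta relative of H2-Eb1 that lies beside it, had dim log2 levels of -3.50 and -3.55 in the GFP-negative cells against -3.79 and -3.95 in the GFP-positive cells. H2-Eb2 fell by 0.34 (SE 0.08, adjusted p = 0.0244), but it was called under only 4 of the 7 scalings and was above 0 in 1, normexp background correction. The probes of H2-Eb1 and H2-Eb2 may share signal, because the genes are related in sequence. Class II chains also differ in sequence between mouse strains, and the strain was not given, so the levels say little about how well each probe binds its transcript.

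Cd74, the invariant chain that escorts new class II molecules to the endosome, showed the largest called decrease among the members at this scaling. The log2 level of Cd74 was 1.29 and 1.24 in the GFP-negative cells against 0.84 and 0.72 in the GFP-positive cells. It fell by 0.49 (SE 0.07, adjusted p = 0.00772), a 1.40-fold decrease, and the positive arrays lay well below the negative ones. Cd74 was called lower under each of the 7 scalings, with differences between -0.78 and -0.47. Without negative replicate 1 its adjusted p was 0.0561, and it kept its call without each of the other 3 arrays.

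The peptide exchange genes moved the other way at this scaling. H2-DMa, the DM alpha chain, had log2 levels of 3.77 and 3.74 in the GFP-negative cells against 4.10 and 4.15 in the GFP-positive cells. It rose by 0.37 (SE 0.06, adjusted p = 0.00853), or 1.29-fold. H2-DMb1, a DM beta chain, had levels of 2.99 and 3.12 in the GFP-negative cells against 3.44 and 3.42 in the GFP-positive cells and rose by 0.37 (SE 0.07, adjusted p = 0.0152), or 1.30-fold. For both genes the positive arrays were the higher pair, with a gap wider than the spread within a group. H2-DMb2, the other DM beta chain, was close to background, with levels of -3.29 and -3.59 in the GFP-negative cells against -2.99 and -3.54 in the GFP-positive cells. Its difference of 0.18 (SE 0.22, adjusted p = 0.533) was not called, and the groups overlapped. The probes of H2-DMb1 and H2-DMb2 may share signal because the genes are close copies, and at this signal a change of H2-DMb2 of that size could not be told from the spread.

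The increase of H2-DMa and H2-DMb1 depended on the scaling. The differences stayed above 0 under each of the 7 scalings but shrank to 0.04 for H2-DMa and 0.08 for H2-DMb1, and they were called under 2 of the 7, the 75th percentile with and without normexp background correction. H2-DMb2 was above 0 under 5 scalings and below 0 under the 75th percentile of probes above background on all arrays and spike-in scaling, with differences from -0.12 to 0.28. Among the single arrays left out, H2-DMa lost its call without either negative replicate (adjusted p = 0.0557 and 0.0640) and H2-DMb1 without negative replicate 1 (0.0759).

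**Figure D2:**
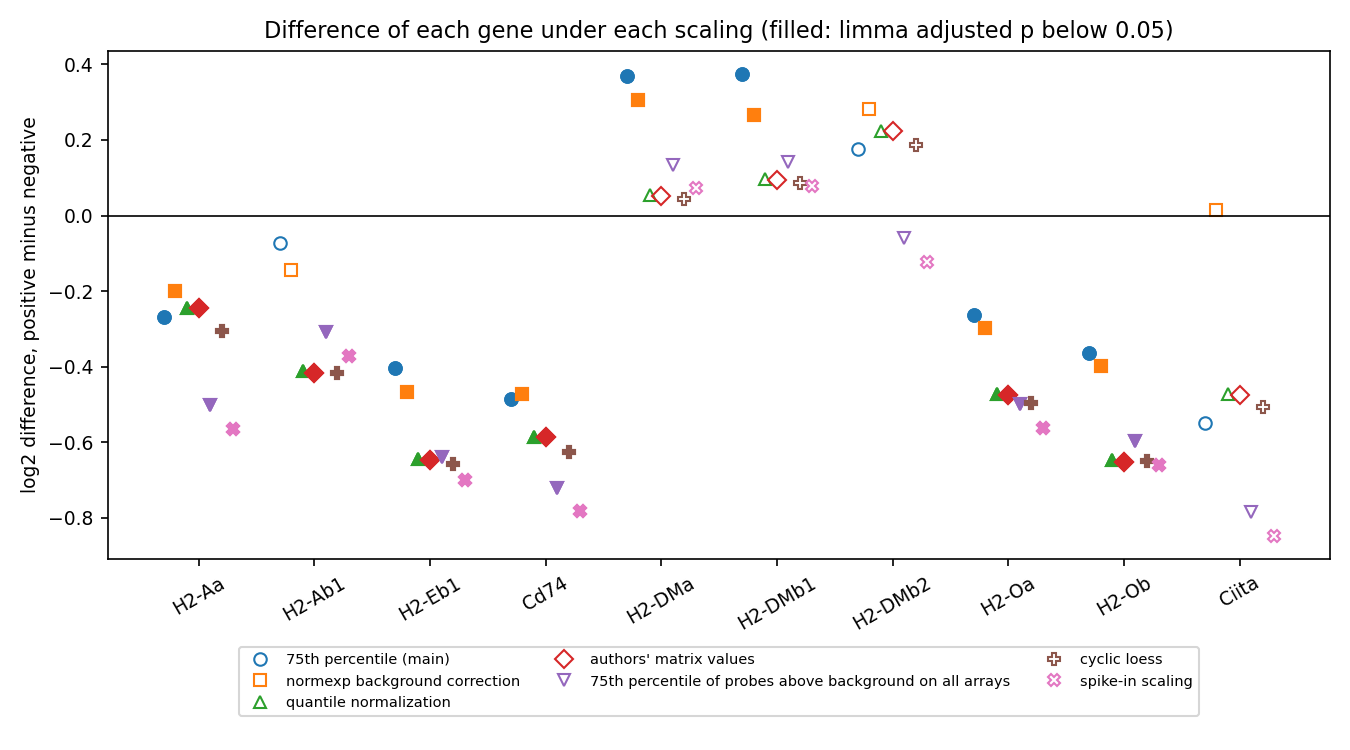
Log2 difference, IRF8-GFP positive minus negative (vertical axis), of each class II gene under the 7 scalings (symbols), filled where the limma adjusted p was below 0.05. Cd74, H2-Eb1, H2-Aa, H2-Oa and H2-Ob are filled and below 0 throughout, while H2-DMa and H2-DMb1 approach 0 and lose their call under 5 of the 7.

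The DO genes encode the dimer that holds DM back, and H2-Oa and the brighter of the 2 H2-Ob probes were called lower in IRF8-GFP positive cells under each of the 7 scalings. H2-Oa, the DO alpha chain, had log2 levels of 2.38 and 2.46 in the GFP-negative cells against 2.15 and 2.15 in the GFP-positive cells. It fell by 0.26 (SE 0.06, adjusted p = 0.0237), or 1.20-fold, with the positive arrays nearly alike and both below the negative ones. H2-Ob, the DO beta chain, had levels of 3.35 and 3.43 in the GFP-negative cells against 3.04 and 3.02 in the GFP-positive cells at its brighter probe. That probe fell by 0.36 (SE 0.06, adjusted p = 0.0108), or 1.29-fold.

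The second probe of H2-Ob did not show this, with log2 levels of 2.50 and 2.49 in the GFP-negative cells against 2.52 and 2.52 in the GFP-positive cells, a difference of 0.02. The H2-Ob probes therefore disagree, and with the mean of both the difference was -0.17 and not called (adjusted p = 0.0554). H2-Oa lost its call in each of the 4 fits that left out an array (adjusted p = 0.0759 and 0.129 without negative replicates 1 and 2, 0.0672 and 0.0633 without positive replicates 1 and 2). H2-Ob lost it without either negative replicate (0.0503 and 0.0718).

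Ciita, the transactivator of the family, was dim. Its log2 levels were -2.54 and -2.74 in the GFP-negative cells against -2.77 and -3.61 in the GFP-positive cells, and 1 of the 2 positive arrays was well above background. It passed the filter only through the negative arrays. Both positive arrays were below both negative arrays, but the positive arrays lay further from each other than the group means did. The difference of -0.55 (SE 0.31, adjusted p = 0.191) was not called. The difference of Ciita ranged from -0.85 to 0.01 over the 7 scalings, was above 0 only with normexp background correction, and was called in none of them. Without positive replicate 1 it was -0.97 with an adjusted p of 0.0084, and without positive replicate 2 it was -0.13 (0.388), so that the value rests on which of these arrays is kept.

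**Figure D3:**
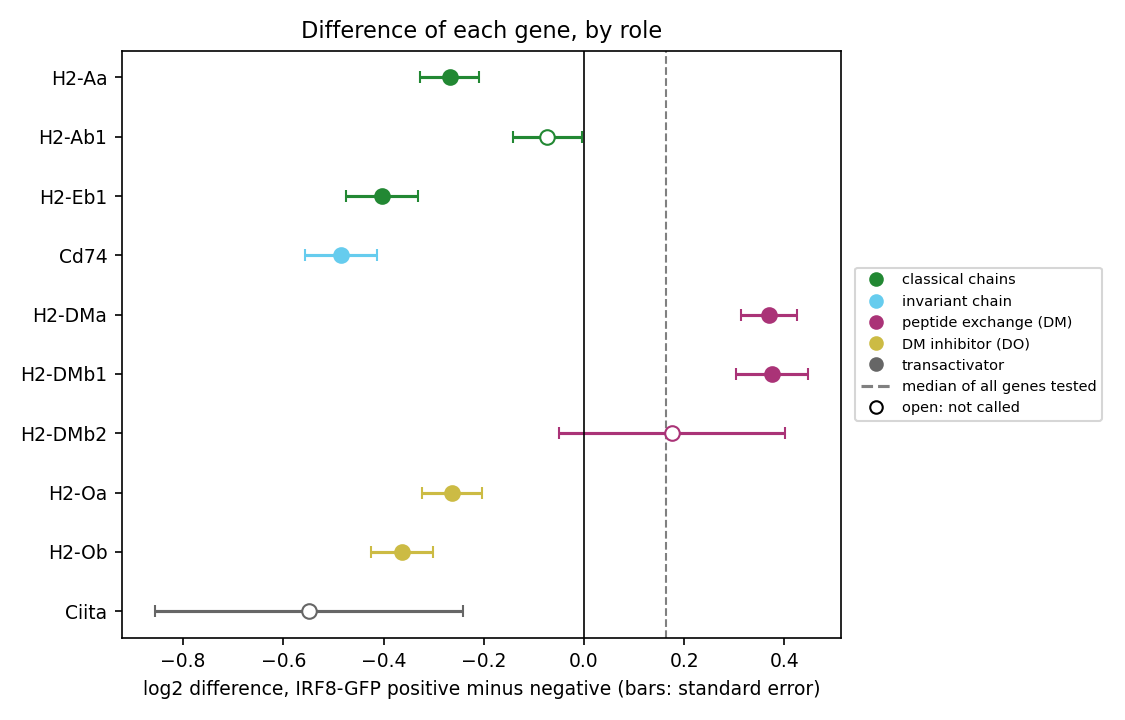
Log2 difference, IRF8-GFP positive minus negative (horizontal axis), of each class II gene with its standard error, coloured by role, open where not called, beside 0 (solid line) and the median of all genes tested, 0.16 (dashed line). H2-DMa and H2-DMb1 lie at 0.37 to the right of both lines, and H2-Aa, H2-Eb1, Cd74, H2-Oa and H2-Ob lie between -0.49 and -0.26.

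A difference between genes within an array does not move when an array is rescaled by a factor. The mean log2 level of the 3 DM genes minus that of the 3 classical chains was -1.14 and -1.29 in the GFP-negative cells against -0.54 and -0.79 in the GFP-positive cells. The level of this quantity depends on the probes and was not read, but its mean went from -1.22 (SD 0.103, n = 2) to -0.66 (SD 0.175, n = 2), a change of 0.55, or a 1.47-fold shift of DM signal relative to classical chain signal. With H2-DMa and H2-DMb1 alone it was 1.08 and 1.05 in the GFP-negative cells against 1.72 and 1.65 in the GFP-positive cells, a change of 0.62 or 1.54-fold. The positive arrays were the higher pair in both versions.

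Each of the pairs made from H2-DMa or H2-DMb1 with H2-Aa, H2-Ab1, H2-Eb1 or Cd74 had both positive arrays above both negative arrays, 8 pairs of 8, with changes from 0.44 to 0.86. For the pairs with H2-Aa, H2-Eb1 and Cd74 this separation was fixed by the single genes, whose groups lay apart in opposite directions. Among these pairs only those with H2-Ab1 were open, and all of them reuse the same few probes. The smallest change was that of H2-DMa against H2-Ab1 and the largest that of H2-DMb1 against Cd74. H2-DMb2 separated the groups in 2 of its 4 pairs, those with H2-Eb1 and Cd74. Over 13 alternatives, arrays left out included, the change of the 3 DM genes against the classical chains lay between 0.43 and 0.68, and over the scalings among them between 0.55 and 0.57. Several of these alternatives are no check of it. Spike-in scaling and the 75th percentile of probes above background on all arrays only rescale each array by a factor. The other filters on dim probes kept the same probes for these genes, and all of these left the change at 0.5545. The change shows unequal change of the genes and not which of them changed.

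Brightness moved with the comparison. With the genes tested cut by mean signal into 4 classes of equal size, the median difference was -0.02, 0.00, 0.19 and 0.38 from the dimmest to the brightest class. In the brightest class 67.1% of genes were called higher and 7.85% lower. H2-DMa and H2-DMb1 belong to that class, and their differences lay at percentiles 47.8 and 48.6 of it, near its middle. H2-Ob and H2-Ab1 belong to it too and lay at percentiles 5.60 and 12.3. H2-Eb1, Cd74 and H2-Oa, in the next class, lay at percentiles 13.2, 11.0 and 18.2, and H2-Aa, in the class below, at 32.8. H2-DMb2 and Ciita were in the dimmest class, at percentiles 65.2 and 24.3. Relative to the median of all genes under each scaling, H2-DMa was 0.01 to 0.21 higher and H2-DMb1 0.05 to 0.21 higher, while Cd74 ranged from -0.67 to -0.62 and H2-Ab1 from -0.46 to -0.24. The part of brightness and scaling in each member's difference was not tested beyond these values.

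**Figure D4:**
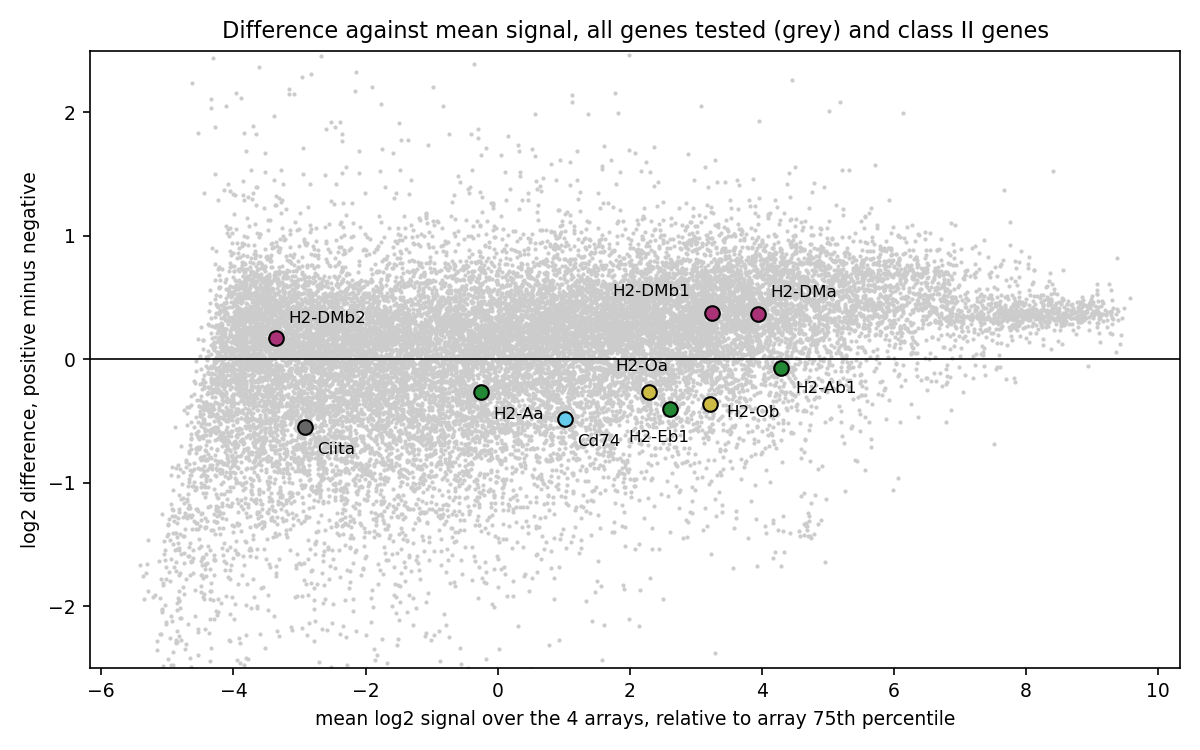
Log2 difference, IRF8-GFP positive minus negative (vertical axis), against the mean log2 signal over the 4 arrays (horizontal axis) for the genes tested (grey) and the class II genes (coloured by role); 148 genes lie beyond the plotted range of 2.5 either way. Bright genes lie mostly above 0, with H2-DMa and H2-DMb1 among them and H2-Ab1 and H2-Ob at their lower edge.

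On chromosome 17, 8 members lie together in the order H2-Oa, H2-DMa, H2-DMb2, H2-DMb1, H2-Ob, H2-Ab1, H2-Aa and H2-Eb1 of the RefSeq annotation. The DM genes were followed by Psmb9, Tap1, Psmb8 and Tap2, which serve class I presentation as immunoproteasome subunits and peptide transporters. Of these 4 genes 3 rose and 0 fell at this scaling, while 4 of the other 6 scalings gave 1 higher and 1 lower. Psmb8 rose by 0.76 (SE 0.06, adjusted p = 0.00217), Psmb9 by 0.44 (SE 0.06, adjusted p = 0.00562) and Tap1 by 0.29 (SE 0.06, adjusted p = 0.0202). Psmb8 was called higher under each of the 7 scalings, Psmb9 under 3, and Tap1 under 2 with a value below 0 in 1 (spike-in scaling). Tap2 had a difference of -0.03 (adjusted p = 0.701) here and was called lower under 5 of the 7 scalings, with values down to -0.53. H2-Oa, next to H2-DMa among the listed genes at the near end, and H2-Ob, H2-Aa and H2-Eb1 at the far end were the lower members at this scaling. Only listed genes of the region were read, and a link between gene order and difference was not tested.

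**Figure D5:**
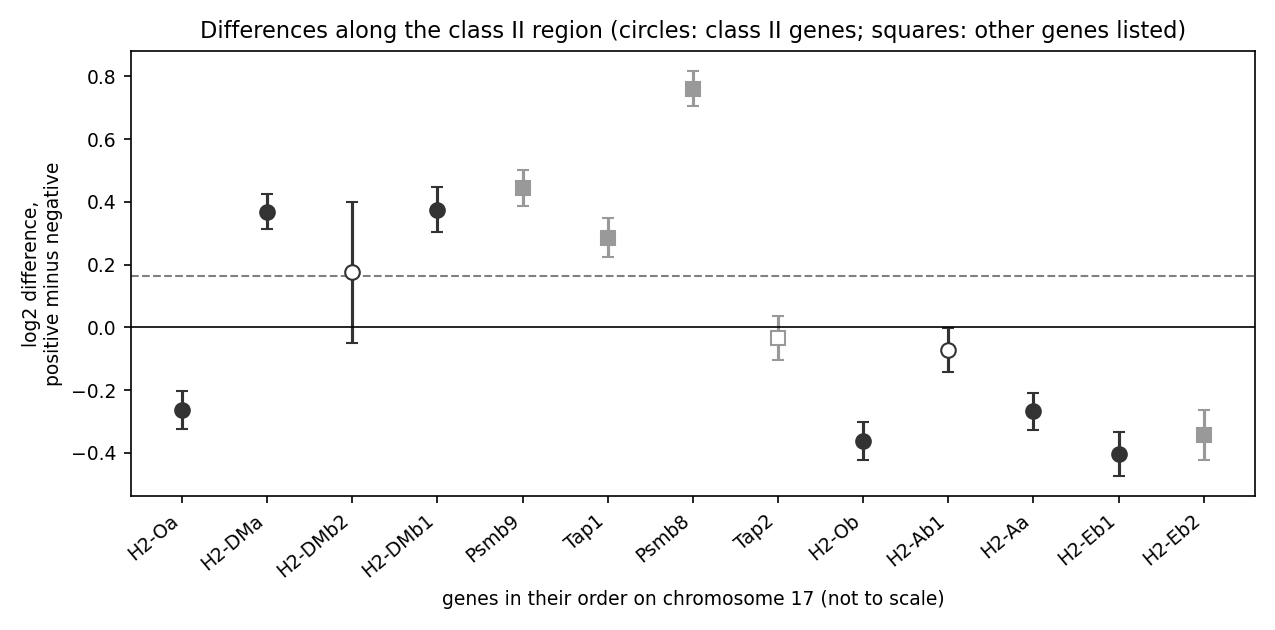
Log2 difference with its standard error, IRF8-GFP positive minus negative (vertical axis), for class II members (circles) and other listed genes (squares) in their order on chromosome 17 (not to scale), open where not called; the dashed line is the median of all genes, 0.16. The points from H2-DMa to Psmb8 are above 0, and those from Tap2 to H2-Eb2 are below it.

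The factors that bind class II promoters are the RFX complex, NF-Y and Creb1. Of the 7 listed, 4 rose, 2 fell and 1 was not called. Counts of this and the other lists stand beside 38.5% of all genes called higher and 21.4% lower at this scaling. Quantile normalization, the authors' matrix and cyclic loess gave 2 higher and 2 lower of the 7. The 75th percentile of probes above background on all arrays gave 1 higher and 3 lower, and spike-in scaling 0 higher and 3 lower. Rfx5, the DNA-binding subunit of RFX, fell by 0.71 (SE 0.10, adjusted p = 0.00683), from -2.19 and -1.98 in the GFP-negative to -2.73 and -2.86 in the GFP-positive cells. Rfxank fell by 0.23, and both were called lower under each of the 7 scalings. The NF-Y subunits Nfyb and Nfyc rose by 0.45 and 0.39, Nfya by 0.23 and Creb1 by 0.38, but Nfyb was called under 6 of the 7 scalings, Creb1 under 5, Nfyc under 2 and Nfya under 1, with a value below 0 in 2 of them, the 75th percentile of probes above background on all arrays and spike-in scaling. Nfya and Nfyc lay at percentiles 53.9 and 51.2 of their brightness classes, near the middle. Rfxap, the third RFX subunit, had a difference of -0.08 (adjusted p = 0.365).

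Upstream of Ciita, interferon gamma acts through its receptor, JAK kinases and IRF1, while Irf8 and Spi1 act in myeloid cells and Prdm1 represses Ciita. Of 12 genes listed 11 were tested, and 4 rose, 4 fell and 3 were not called, with Irf4 not kept by the filter. Under 5 of the 7 scalings 6 of the 11 were called lower and 2 or 3 higher. Irf8, the gene the reporter marks, had log2 levels of 1.64 and 1.60 in the GFP-negative cells against 5.13 and 5.22 in the GFP-positive cells and rose by 3.55 (SE 0.06, adjusted p = 0.000802), in the direction of the sort. Ifngr2 rose by 0.52 and Spi1 by 0.48, with Ifngr2 called under each of the 7 scalings and Spi1 under 6. Ifngr1 rose by 0.32 and was called under 2 of the 7 scalings. The kinases Jak1 and Jak2 fell by 0.21 and 0.22 and Socs1, which inhibits them, by 0.29, each called under all 7 scalings. Irf1 and Irf2 had differences of -0.11 and -0.10 that were not called here, and each was called lower under 5 of the 7 scalings. Prdm1 fell by 0.73 (SE 0.15, adjusted p = 0.0192) and was called under 6 of the 7 scalings.

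Endosomal proteins prepare antigen and trim the invariant chain. Of 8 listed genes for them, 6 rose, 1 fell and 1 was not called, beside 38.5% of all genes called higher and 21.4% lower. Quantile normalization, the authors' matrix, cyclic loess and spike-in scaling gave 5 higher and 1 lower. Lgmn, an asparaginyl endopeptidase, rose from -0.06 and 0.10 in the GFP-negative to 1.67 and 1.54 in the GFP-positive cells, and Ifi30, the thiol reductase GILT, from -0.57 and -0.72 to 0.89 and 0.85. Their differences were 1.58 (SE 0.09, adjusted p = 0.00168) and 1.52 (SE 0.08, adjusted p = 0.00151). Ctsh and Cst3, a cathepsin and a cathepsin inhibitor, rose by 0.80 and 0.78, and Ctss, the cathepsin best known for cleaving the invariant chain, by 0.60. These 5 genes were called higher under each of the 7 scalings, and Ctsl, which cleaves the invariant chain in thymic epithelium, fell by 0.65 and was called lower under each. Ctsb, the other gene that rose, did so by 0.44 and was called under 3 of the 7.

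Genes of class II turnover and costimulation gave 0 called higher, 3 lower and 2 not called among the 5 tested of 6 listed, with Cd40 not kept by the filter. Cd86, a ligand of CD28, fell from -0.33 and -0.15 in the GFP-negative to -1.43 and -1.48 in the GFP-positive cells, a difference of -1.21 (SE 0.09, adjusted p = 0.00207). Cd80, the other CD28 ligand, fell by 0.28, and both were called under each of the 7 scalings. Cd83 was not well above background on either positive array and passed the filter only through the negative arrays, so its place among the 3 is no support for a decrease. It was at least 1.15-fold lower there, and with normexp background correction its difference was -0.01 (adjusted p = 0.960). An "at least" value sets the brighter group's mean against the higher, on each array of the dimmer group, of the probe's own signal and the lowest signal well above background. Marchf1, the ubiquitin ligase that removes class II from the surface, had levels of 3.56 and 2.96 in the GFP-negative cells against 2.38 and 2.62 in the GFP-positive cells. Its difference of -0.76 (SE 0.23, adjusted p = 0.0504) was not called, although under the other 6 scalings it was called lower.

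The samples were bulk sorted cells, in which fewer cells of a type and less RNA per cell cannot be told apart. The sorting genes were above background except Slamf1, which encodes the CD150 the gate excludes. Ly6a and Kit fell by 0.96 and 0.39, while Il7r, whose product the gate excludes, rose by 2.40, each under all 7 scalings. Cd34 and Flt3 rose by 0.26 and 0.25, but each was called higher under 1 of the 7 scalings, called lower in 1 and 2, and below 0 in 4.

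Markers of presenting cells moved beside the class II genes, and their part in the members' differences was not tested. Summed linear levels of a list, in multiples of the array's 75th percentile, weigh its bright probes most. Of 8 conventional dendritic cell markers 6 were tested and 4 were called higher at this scaling, against 3 under 5 of the other scalings. Clec9a, 1 of the 4, passed the filter only through the positive arrays, so its place among the 4 is no support for an increase. It was at least 8.04-fold higher there at this scaling, and with normexp background correction its difference was 1.75. Itgax rose by 1.34 and Batf3 by 1.18, both called under each of the 7 scalings. The sum of the list was 7.13 and 7.36 in the GFP-negative cells and 9.73 and 10.1 in the GFP-positive cells, with Clec10a and Sirpa, called under 2 and 0 of the 7 scalings, the largest parts of it in the GFP-negative cells. Xcr1 and Cd209a were above background on no array. For monocytes and macrophages 4 of 7 listed markers were tested and all 4 rose, with Mertk above background on no array. The sum went from 7.84 and 7.67 to 55.0 and 57.2 and is mostly Csf1r, which rose by 2.74. Cx3cr1 rose by 4.48 and Ccr2 by 3.84, both called under each of the 7 scalings. Adgre1 rose by 0.905 but stayed dim, at -2.91 and -2.77 in the GFP-positive cells. Of the B cell markers 4 of 7 were tested, and at this scaling Cd79b rose and Cr2 fell, with Ms4a1 and Ebf1 above background on no array. Their sum of 11.5 and 10.9 against 14.2 and 13.8 is mostly Cd79b, which was called under 2 of the 7 scalings, and 5 scalings gave 0 higher and 1 or 2 lower. Plasmacytoid dendritic cell markers gave 2 higher and 1 lower of 5 tested, and 0 higher and 1 lower under 5 of the 7 scalings, with overlapping sums of 190 and 145 against 175 and 152 and Klk1 above background on no array. The higher ones, Bst2 and Tcf4, rose by 0.46 and 0.37 and were each called under 2 of the 7 scalings. Ccr9 fell by 1.81 and was called lower under each of the 7. Of 6 T and innate lymphoid markers 4 were tested and 3 fell, with sums of 4.58 and 4.06 against 3.46 and 2.78 and Cd3g above background on no array. Rora fell by 2.14, Gata3 by 2.06 and Thy1 by 0.89, each called under all 7 scalings. Beside these values stand the called decreases of H2-Aa, H2-Eb1 and Cd74 and the called increases of H2-DMa and H2-DMb1, the latter under 2 of the 7 scalings only.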

How the data were processed

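RNA of sorted LMPP was labelled with Cy3 and hybridized to 1 slide with 4 arrays. Per the file headers, the authors read the scans with Agilent Feature Extraction 10.7.3.1, and the deposited processed intensity of each spot is background-subtracted and not normalized between arrays. The array design names another genome build than the GRCm38.p6 RefSeq tables, which were used for names, gene order and promoter sequence only. Control spots and outlier spots (0.174% to 0.233% of spots per array) were left out, 55669 of 55681 probes were used, and 29631 to 33681 of 59305 spots per array were well above background. The mean over a probe's spots was put on the log2 scale less the 75th percentile of its array (an intensity of 438 and 543 for the negative, 318 and 414 for the positive samples). Probes well above background on both arrays of a group were kept (30478), and the brightest kept probe stood for a gene. The fit used limma 3.58.1 (lmFit, eBayes, no block) in R 4.3.3, two-sided, with Benjamini-Hochberg adjustment over 22362 genes and unnamed transcripts, and was tested on simulated data. The deposited matrix holds the authors' linear intensity values with a median of 31.8 to 31.9 on each array, and they served as an alternative. Their centring was not stated, but the differences they gave were close to those of quantile normalization.

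The members and lists were chosen with earlier results of these data known. Genes named beyond the members are Irf8, the sorting genes and up to 4 called genes of a list with the largest difference. Further ones (Rfxank, Nfya, Rfxap, Ctsb, Ctss, Ctsl, Marchf1, Tap2, Ifngr1, Jak1, Jak2, Socs1, Irf1, Irf2, and marker genes) were picked after seeing their values. Alternatives tried were other scalings, background correction, filters, variance model, probe summary, threshold, a replicate block and each array left out.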

Additional observations from a re-analysis of the deposited data

How the results depend on the processing

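No call of a member reversed under any of the alternatives run. Leaving out each array in turn, the genes called ranged from 7612 to 12774 (13390 with all arrays), the members called higher from 0 to 2, the members called lower from 0 to 4, and the change of DM genes against classical chains from 0.43 to 0.68. Quantile normalization, the authors' matrix, the 75th percentile of probes above background on all arrays, cyclic loess and spike-in scaling each gave 0 members called higher. At an adjusted p of 0.01, 7861 genes, 1 member higher and 1 lower were called. The split of higher to lower genes was 6059 to 5466 with quantile normalization, 6035 to 5487 with the matrix, 4382 to 7253 with the probes above background on all arrays, 5303 to 6060 with loess, 3344 to 7939 with spike-ins (5 bright control probes), 10026 to 3583 with normexp and 14564 to 4372 with no filter. The median difference of all genes ran from -0.13 to 0.20 over the 7 scalings and was 0.34 with no filter. Ciita had no value when probes had to be above background on all 4 arrays. The samples share only an experiment number: deviations of same-numbered arrays correlated at r = 0.0971 over genes, and the fit with the replicate block called 13946 genes (9094 higher, 4852 lower) with the same 2 members higher and 5 lower. Background sets the limit for the dim probes of H2-DMb2 and Ciita, and 2 arrays a group limit all of these estimates.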
